A study of Mus musculus with 20 samples.

Results

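Mouse colon organoids carrying activated BrafV600E that had been selected to grow in a medium without stem-cell niche factors were compared with organoids that had received an empty vector (EV). The comparison used the arrays of 3 selected and 3 EV lines kept in base medium for the last 48 h, which are 6 of the 20 arrays of the series, and the arrays were taken by their titles. All 6 cultures came from crypts of the proximal colon of male mice of about 40 days that were heterozygous for a Cre-activable BrafV600E allele, grown in Matrigel. The EV organoids received the lentiviral backbone, so their allele was not activated. The selected organoids received lentiviral Cre and were afterwards selected without niche factors. The other arrays hold the same types in ENSW medium, unselected BrafV600E (BRAF) organoids profiled 5 months after induction in both media, and 1 wild-type organoid array in each medium. ENSW is the medium name that the titles use, and the protocol names EGF and media conditioned with Noggin, R-spondin and Wnt3a. Total RNA was labelled with Cy3 and hybridised to 1-colour Agilent arrays, 1 array for each type, line and medium. The labels do not say whether lines 1, 2 and 3 were started from separate mice. They also do not give how many cells founded a selected line, or how long selection lasted. The p-values therefore measure the spread between arrays of this series only. That spread was pooled over the EV, BRAF and selected arrays in both media, and not taken from the 6 compared arrays alone.

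BRAF is a kinase of the RAS-RAF-MEK-ERK cascade, which carries growth factor signals from receptors such as EGFR to the nucleus, and the V600E substitution keeps it active without upstream input. Colon crypts renew from Lgr5-positive stem cells that depend on Wnt and R-spondin, while BMP signals, which Noggin blocks, promote differentiation into absorptive colonocytes, mucus-secreting goblet cells and hormone-secreting enteroendocrine cells. Normal colon organoids need these niche factors in the medium to keep dividing.

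Levels are given as log2 signal relative to the 75th percentile of the same array, so 0 is that percentile and 1 unit is a 2-fold difference. In lists of values the order is always line 1, 2 and 3. Differences are selected minus EV on the log2 scale with the standard error (SE) of limma's fit, and called genes had a p under 0.05 after Benjamini-Hochberg adjustment over the 21439 genes tested. Between 59.6% and 63.3% of the 43020 gene spots were well above background on each of the 6 arrays, and the number of arrays limits the precision. All arrays were scanned in 1 batch. The EV arrays lay on slides 1 and 2 and the selected arrays on slides 3 and 4, so organoid type cannot be told apart from slide here. The test was also run on simulated arrays with 200 of 21420 genes changed and all groups otherwise alike. It recovered 38.8% of genes changed 2-fold and 97% of genes changed 16-fold. Many more genes were called in the real comparison, which shifts the adjusted threshold, so these rates do not measure its power.

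The promoters of a few genes are shown first, because several of the gene groups described below are known for short sequence elements before their start sites. Each line gives the 250 bases before the RefSeq transcription start, 5′ to 3′ on the gene's strand, in build GRCm38.p6, which differs from the build (mm9) of the probe positions in the array files. Capitals mark the motif named for the gene, read on either strand. Mcm5 (chr8:75109259-75109508, plus strand) and Mcm6 (chr1:128359706-128359955, minus strand) encode subunits of the replicative helicase, and capitals mark the E2F motif TTGGCGC. Cdk1 (chr10:69352913-69353162, minus strand) and Cdc20 (chr4:118437344-118437593, minus strand) drive mitosis, and capitals mark the cell cycle homology motif TTTGAA and the CCAAT box. Fabp2 (chr3:122894822-122895071, plus strand) and Ceacam20 (chr7:19965162-19965411, plus strand) belong to mature enterocytes, and capitals mark the CDX motif TTTATNG. Ifit1 (chr19:34640639-34640888, plus strand) is induced by interferon, and capitals mark the interferon-stimulated response element (ISRE).
Mcm5: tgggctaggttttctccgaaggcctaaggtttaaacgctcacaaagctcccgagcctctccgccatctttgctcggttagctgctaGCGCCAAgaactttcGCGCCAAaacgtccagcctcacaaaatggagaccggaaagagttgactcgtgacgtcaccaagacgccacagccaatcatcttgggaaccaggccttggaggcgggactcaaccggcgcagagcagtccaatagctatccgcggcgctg
Mcm6: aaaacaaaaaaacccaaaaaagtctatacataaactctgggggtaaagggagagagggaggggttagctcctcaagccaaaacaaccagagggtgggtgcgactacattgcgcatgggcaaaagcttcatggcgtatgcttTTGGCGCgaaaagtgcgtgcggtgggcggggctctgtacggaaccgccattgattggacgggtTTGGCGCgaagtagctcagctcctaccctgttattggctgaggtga
Cdk1: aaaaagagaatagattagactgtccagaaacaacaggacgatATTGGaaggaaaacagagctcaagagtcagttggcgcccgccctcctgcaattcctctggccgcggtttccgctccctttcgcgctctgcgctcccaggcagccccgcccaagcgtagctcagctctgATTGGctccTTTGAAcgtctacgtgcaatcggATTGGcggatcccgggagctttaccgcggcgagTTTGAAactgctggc
Cdc20: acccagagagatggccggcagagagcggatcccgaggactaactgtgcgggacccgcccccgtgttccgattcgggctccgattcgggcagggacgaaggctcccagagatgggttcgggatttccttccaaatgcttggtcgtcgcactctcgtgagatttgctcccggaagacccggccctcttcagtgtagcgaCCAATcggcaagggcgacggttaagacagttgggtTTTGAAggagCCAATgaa
Fabp2: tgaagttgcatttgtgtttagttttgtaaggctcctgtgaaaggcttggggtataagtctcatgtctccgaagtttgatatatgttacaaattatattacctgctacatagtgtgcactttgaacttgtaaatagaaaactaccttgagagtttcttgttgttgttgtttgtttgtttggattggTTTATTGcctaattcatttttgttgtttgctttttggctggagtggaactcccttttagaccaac
Ceacam20: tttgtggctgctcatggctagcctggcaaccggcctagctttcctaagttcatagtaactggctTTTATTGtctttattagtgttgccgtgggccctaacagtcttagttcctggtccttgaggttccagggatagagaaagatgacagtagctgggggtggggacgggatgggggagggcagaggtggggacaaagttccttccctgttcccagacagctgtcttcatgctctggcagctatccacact
Ifit1: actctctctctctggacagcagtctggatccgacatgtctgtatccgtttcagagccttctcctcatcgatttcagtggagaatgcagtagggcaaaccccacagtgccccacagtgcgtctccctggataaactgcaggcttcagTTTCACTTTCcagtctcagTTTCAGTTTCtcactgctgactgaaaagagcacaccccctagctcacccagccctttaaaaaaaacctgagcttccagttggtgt

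Of the 21439 genes tested, 10330 (48.2%) were called, 5356 of them higher (25.0%) and 4974 lower (23.2%) in selected than in EV organoids. The 3 selected arrays lay above all 3 EV arrays for 28.7% of genes and below them for 26.6%, so the groups did not overlap for 55.3%. The median difference over all genes was 0.02. Counts of list members called against EV in base medium are to be read beside these shares of 25.0% higher and 23.2% lower. The falls reached further than the rises, since 486 genes were called lower by over 16-fold and 223 were called higher by that much. The call was kept without any single array for 7636 genes.

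The largest measured rises were in genes of cell division and in a few genes of other functions. Pimreg, a regulator of the metaphase to anaphase transition, lay at -4.87, -5.29 and -7.42 in EV organoids and at 1.64, 0.85 and 1.34 in selected organoids, a difference of 7.14 ± 0.55 (SE; adjusted p = 6.12e-07). Ska1, which ties kinetochores to spindle microtubules, differed by 6.23 ± 0.68 (SE; adjusted p = 7.06e-06), and Spag5, a spindle protein, by 6.14 ± 0.75 (SE; adjusted p = 1.72e-05). Pimreg, Ska1 and Spag5 were low in all 3 EV lines and lowest in EV line 3. Tesc, which encodes the calcium-binding protein tescalcin, lay at -1.24, -3.01 and -2.54 in EV organoids and at 3.84, 3.78 and 5.11 in selected organoids, a difference of 6.50 ± 0.95 (SE; adjusted p = 6.79e-05). Tubb6, a beta-tubulin, rose by 5.99 and Eya2, a transcriptional coactivator with phosphatase activity, by 5.91. Prss12, a secreted serine protease, rose by 6.35, with selected line 3 the highest. Mvb12b, a subunit of the ESCRT-I sorting complex, rose by 6.45, with an adjusted p of 0.0524 without EV line 2. The groups did not overlap in any of these genes, because genes with overlap had been left out of this ranking. The ranking asked for at least 1 array well above background in each group. Pimreg, Ska1 and Prss12 had only 1 such EV array, so their differences are not exact sizes.

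For 409 genes called higher, no EV array was well above background, and for 570 called lower, no selected array was. For such genes the fold is a lower bound, the mean of the bright group against the higher of the dim probe's own signal and the lowest signal well above background on each array. Eml1, a microtubule-associated protein, was at least 91.3-fold higher, and Ror2, a Wnt receptor, at least 44.9-fold higher. Spp1, which encodes osteopontin, was at least 53.7-fold higher, but its selected lines were far apart at -3.87, 4.10 and 0.80. Among the falls, Cyp4f14, a fatty acid hydroxylase, was at least 4409-fold lower, the goblet cell peptide Tff3 at least 3588-fold, the brush border protease Mep1b at least 3269-fold and the acute phase protein Saa2 at least 1399-fold. The plot of each gene's difference against its mean level shows the lower calls reaching further from 0 than the higher calls.

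**Figure D1:**
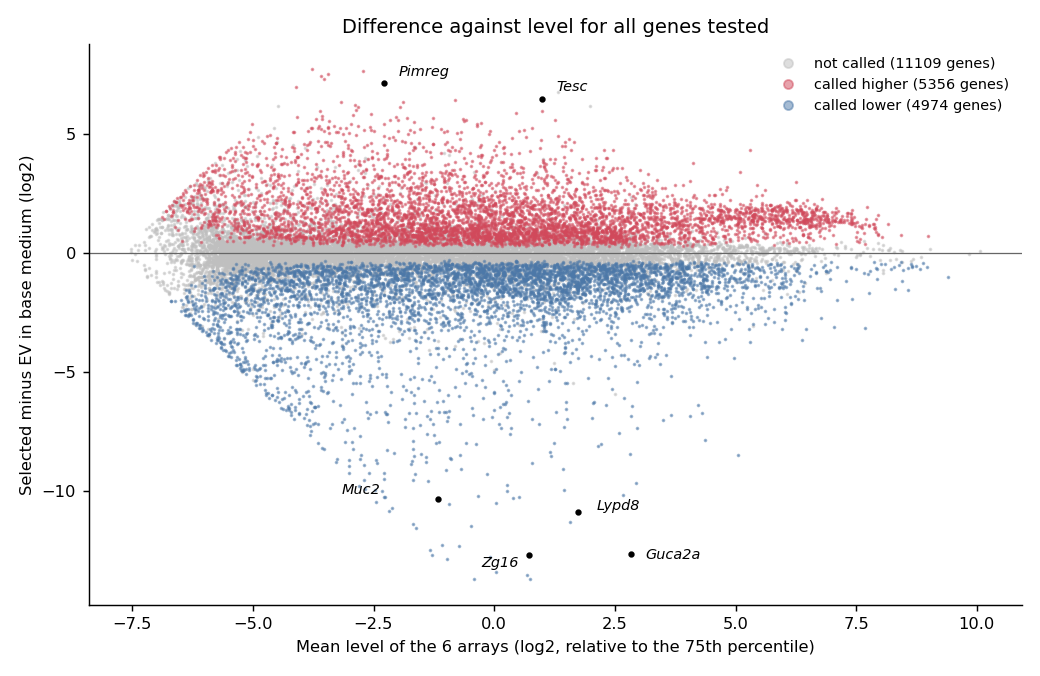
Each point is 1 of the 21439 genes tested, with its mean level over both groups on the x axis (log2 relative to the array's 75th percentile) and the difference between selected and EV organoids in base medium on the y axis (log2). Colours mark the 5356 genes called higher, the 4974 called lower and those not called, and the falls extend to -12.68 (Zg16) among the genes labelled.

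Markers of epithelium were present on all 6 arrays, each of the 12 listed genes being well above background on every one, but 8 of the 12 were lower in selected organoids, against 23.2% of all genes. Epcam, an epithelial adhesion molecule, lay at 5.79, 5.29 and 6.11 in EV organoids and at 3.21, 4.21 and 4.17 in selected organoids, a difference of -1.86 ± 0.30 (SE; adjusted p = 0.000165). Cdh1, which encodes E-cadherin, fell by 1.50, and the tight junction gene Ocln fell by 2.92. The selected lines lay below every EV line for each of these 3 genes. Of 10 blood and endothelial markers 1 was higher and 1 lower (none higher once any array but selected line 2 was left out), and the leukocyte marker Ptprc lay between -4.43 and -3.65 on the 6 arrays. Of 9 mesenchymal markers 2 were higher and 2 lower (22.2% each, against 25.0% and 23.2% of all genes). Their higher count was 0 or 1 as each of the 6 arrays was left out. Acta2, a marker of myofibroblasts, lay at -2.69, -2.64 and -2.35 in EV organoids and at -2.19, -2.09 and -1.84 in selected organoids, a difference of 0.52 ± 0.25 (SE; adjusted p = 0.0962), and Thy1 was at least 174-fold lower. The part of other cell types in the results below was not tested. The Y-linked gene Ddx3y was well above background on all 6 arrays, which the labels give as male.

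Braf itself lay at -3.16, -3.33 and -2.62 in EV organoids and at -2.32, -1.92 and -2.53 in selected organoids, a rise of 0.78 ± 0.24 (SE; adjusted p = 0.0163). The groups did not overlap, but the lowest selected line was close to the highest EV line. The adjusted p was 0.0549 without EV line 1, 0.0681 without EV line 2 and 0.0748 without selected line 2, and the call was also lost in a fit of the 6 arrays alone. Both Braf probes differed in the same direction. These probes do not tell the mutant from the wild-type allele and so do not check that the allele was activated.

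Genes of DNA replication were higher in selected organoids throughout. All 25 listed genes were called higher, against 25.0% of all genes, with a median difference of 3.66 against 0.02 over all genes, and in every one the 3 selected arrays lay above the 3 EV arrays. Mcm5, a subunit of the replicative helicase, lay at -1.54, -2.60 and -4.89 in EV organoids and at 2.76, 2.08 and 2.54 in selected organoids, a difference of 5.47 ± 0.62 (SE; adjusted p = 9.24e-06). Pola1, the catalytic subunit of the polymerase that starts each DNA strand, differed by 5.42 ± 0.56 (SE; adjusted p = 4.68e-06), and Prim1, its primase partner, by 5.16 ± 0.65 (SE; adjusted p = 2.20e-05). In these 3 genes EV line 3 was the lowest array while the selected lines lay within 1 unit of each other. Cdt1, which loads the helicase onto origins, rose by 3.98, and Tk1, which makes thymidine nucleotides, by 4.43. The smallest rise of the list was that of Tyms, thymidylate synthase, at 1.17 ± 0.23 (SE; adjusted p = 0.000689).

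Mitotic genes followed, with 24 of 25 called higher and a median difference of 4.52. Mki67, the common marker of dividing cells, lay at 0.71, -0.41 and -2.86 in EV organoids and at 4.34, 3.65 and 3.81 in selected organoids, a difference of 4.79 ± 0.65 (SE; adjusted p = 3.80e-05). Cdk1, the kinase that drives entry into mitosis, lay at -3.67, -4.05 and -6.62 in EV organoids and at 0.83, 0.58 and 1.00 in selected organoids, a difference of 5.58 ± 0.58 (SE; adjusted p = 5.38e-06). Ccnb1, its cyclin B partner, rose by 5.56, Top2a, the topoisomerase that untangles chromosomes, by 5.12, and Aurka, a spindle pole kinase, by 4.35. EV line 3 again had the lowest Mki67 and Cdk1 and the selected lines were close together. The exception was Ncapg, a condensin subunit, at -7.07, -7.12 and -1.66 in EV organoids and at -3.26, -3.86 and -3.18 in selected organoids, a difference of 1.85 ± 1.01 (SE; adjusted p = 0.148). Its EV line 3 lay above all 3 selected lines.

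Of 13 genes that drive the cell cycle, 8 were higher and none lower, or 1 lower without EV line 2. Ccnd1, cyclin D1, lay at 1.75, 3.43 and 0.76 in EV organoids and at 4.18, 4.69 and 4.41 in selected organoids, a difference of 2.44 ± 0.48 (SE; adjusted p = 0.000708), and Ccnd2 rose by 3.78. Cdk4, the kinase partner of the D cyclins, rose by 2.83, and Ccne1, cyclin E1, by 2.35. E2f1 and E2f8, transcription factors of the G1 to S transition, rose by 3.16 and 4.55. Cdk6 (0.24), E2f2 (-1.25) and E2f3 (-0.46) were not called. E2f7 depended on the probe, at -0.04 on the brighter one and 2.45 for the mean of both, which was called. Myc, a driver of growth and a target of Wnt and ERK signalling, lay at 2.23, 2.28 and 1.30 in EV organoids and at 4.50, 3.98 and 3.06 in selected organoids, a difference of 1.91 ± 0.36 (SE; adjusted p = 0.000531).

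DNA repair genes were higher in 17 of 18 cases, with a median of 3.01. Fanci, of the Fanconi pathway, rose by 5.81, and its partner Fancd2 was at least 5.89-fold higher. Only 1 EV array was well above background for Fanci, so its difference is not an exact size. The mismatch repair genes Msh6 and Pms2 rose by 2.38 and 1.70. Chek1 was not called (-0.01 ± 0.22, adjusted p = 0.973).

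Ribosome biogenesis genes were also higher in 19 of 20 cases, with a median of 2.20. Fbl, the fibrillarin methyltransferase of the nucleolus, lay at 0.50, 0.38 and -0.81 in EV organoids and at 3.20, 2.97 and 3.05 in selected organoids, a difference of 3.05 ± 0.27 (SE; adjusted p = 1.58e-06). Ncl, nucleolin, rose by 2.29, Npm1, nucleophosmin, by 2.43, and Polr1b, a subunit of RNA polymerase I, by 3.19. Ubtf, a factor for ribosomal DNA transcription, was not called at 0.21. The plot of levels by array shows the dividing-cell genes beside the inhibitors and differentiation genes described next.

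**Figure D2:**
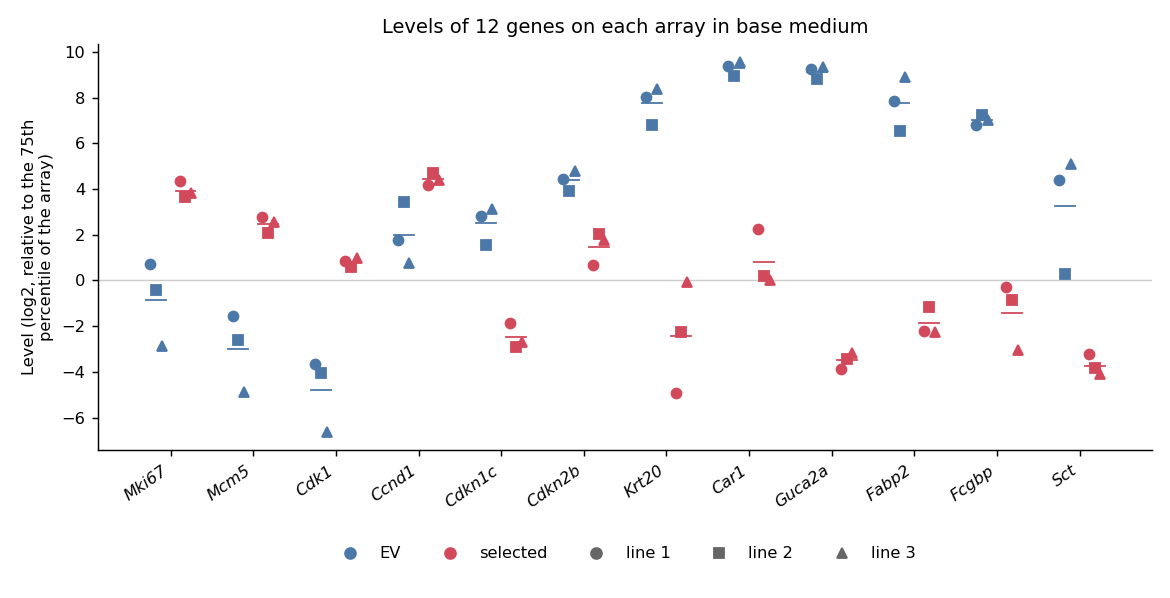
Levels of 12 genes (log2 relative to the array's 75th percentile, y axis) on the 3 EV and the 3 selected arrays in base medium. Points are single arrays marked by line and horizontal bars are group means (n = 3), and the cell cycle genes Mki67, Mcm5, Cdk1 and Ccnd1 are higher while the other 8 genes are lower in selected organoids, with no overlap between groups.

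The inhibitors of cyclin-dependent kinases moved in both directions. Cdkn1c, which encodes p57, lay at 2.81, 1.55 and 3.12 in EV organoids and at -1.85, -2.92 and -2.70 in selected organoids, a difference of -4.99 ± 0.51 (SE; adjusted p = 4.34e-06). Cdkn2b, which encodes p15, lay at 4.45, 3.90 and 4.77 in EV organoids and at 0.67, 2.03 and 1.75 in selected organoids, a difference of -2.89 ± 0.43 (SE; adjusted p = 7.78e-05), and Cdkn1a, p21, fell by 2.15 on its brightest probe. For all 3 genes every selected line lay below every EV line. The mean of the 3 Cdkn1a probes, 1 of which went the other way, differed by -0.94 (adjusted p = 0.131) and was not called. Cdkn2c, p18, rose by 2.45 and Cdkn2d, p19, by 0.64, the latter with an adjusted p of 0.106 without EV line 1, 0.105 without EV line 2, 0.106 without selected line 1 and 0.0601 without selected line 3. Cdkn2a, which encodes p16 and p19ARF, lay at 2.73, 3.25 and 2.77 in EV organoids and at 3.46, 2.01 and 3.36 in selected organoids, a difference of 0.03 ± 0.48 (SE; adjusted p = 0.968). Its groups overlapped, its other probe differed in the opposite direction, and the difference ran from -0.23 to 0.50 as single arrays were left out.

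Among 17 targets of p53, 7 were higher and 2 lower, with a median of 0.43. The median was 0.25 without EV line 2, 0.22 without selected line 2 and 0.78 without selected line 1. The lower count was 1 without EV line 1, EV line 3 or selected line 1, and 3 without EV line 2 or selected line 2. Phlda3, an inhibitor of Akt signalling, lay at 1.44, 2.26 and 1.76 in EV organoids and at 4.66, 4.97 and 5.08 in selected organoids, a difference of 3.08 ± 0.27 (SE; adjusted p = 1.69e-06). Eda2r, a death receptor family member, rose by 3.57, Gdf15, a stress cytokine, by 2.99, Aen, an apoptotic nuclease, by 2.90, and Bax by 1.21. Fas, a death receptor, fell by 3.74. Mdm2, which feeds back on p53, lay just past the threshold at 0.65 ± 0.26 (adjusted p = 0.0546) and was called with, for example, quantile normalization (adjusted p = 0.0169).

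Genes of absorptive colonocytes were lower in 18 of 19 cases, against 23.2% of all genes, with a median of -8.48, or -8.22 with genes below background at their bounds. In bulk RNA, fewer cells of a type and less RNA per cell cannot be told apart. Guca2a, which encodes the hormone guanylin, lay at 9.24, 8.83 and 9.34 in EV organoids and at -3.87, -3.43 and -3.17 in selected organoids, a difference of -12.63 ± 0.81 (SE; adjusted p = 1.53e-07). Krt20, a keratin of differentiated colon epithelium, lay at 8.05, 6.81 and 8.40 in EV organoids and at -4.91, -2.27 and -0.05 in selected organoids, a difference of -10.16 ± 1.17 (SE; adjusted p = 1.03e-05). Car1, a carbonic anhydrase, lay at 9.39, 8.96 and 9.54 in EV organoids and at 2.24, 0.21 and 0.01 in selected organoids, a difference of -8.48 ± 0.91 (SE; adjusted p = 6.28e-06). The EV lines were close to each other for Guca2a and Car1, and in Krt20 selected line 3 was the highest of the selected lines but far below every EV line. Slc26a3, the chloride-bicarbonate exchanger of the colon surface, was at least 302-fold lower, and Aqp8, a water channel, fell by 8.80, with EV line 2 well below the other two EV lines. Clca4a fell by 6.09, but its adjusted p was 0.0838 without EV line 1, 0.103 without EV line 3 and 0.183 without selected line 1. Car4 was the exception at 4.07, 3.94 and 4.86 in EV organoids and at 4.46, 4.24 and 4.31 in selected organoids, a difference of 0.05 ± 0.22 (SE; adjusted p = 0.874). The 2 probes of Car4 disagreed, and their mean fell by 3.38, which was called.

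Brush border genes were lower in 15 of 18 cases, with a median of -2.86. The count was 11 without EV line 3 and 10 in a fit of the 6 arrays alone. Myo1a, the myosin that links microvillus actin to the membrane, lay at 6.07, 5.90 and 6.63 in EV organoids and at -1.07, -2.43 and -2.20 in selected organoids, a difference of -8.10 ± 0.55 (SE; adjusted p = 2.33e-07). Vil1, villin, fell by 2.23, and Ush1c, the harmonin scaffold of the microvillus tips, fell by 4.29. Alpi, intestinal alkaline phosphatase, was at least 269.9-fold lower. The disaccharidase Mgam was not called, with the selected lines at -0.02, 3.89 and 5.65, far apart from each other. Espn, an actin bundler, was not called either, and its selected line 1 (2.29, -3.90 and -5.36) lay within the EV range.

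Fatty acid oxidation and ketogenesis genes fell in 17 of 20 cases by a smaller amount, with a median of -1.33. Cpt1a, which admits fatty acids to mitochondria, lay at 2.79, 2.69 and 2.83 in EV organoids and at -0.49, 0.48 and 0.35 in selected organoids, a difference of -2.66 ± 0.30 (SE; adjusted p = 9.42e-06). Its groups did not overlap. Ppara, the receptor that regulates these genes in other tissues, was the 1 member called higher, by 0.48 ± 0.13 on its brightest probe, but the mean of its 3 probes fell by 3.21 and was called too, so its direction is not settled.

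Of 25 genes of xenobiotic metabolism 15 were lower and 1 higher, with a median of -5.81. Sult1b1, a sulfotransferase, lay at 5.19, 5.18 and 5.40 in EV organoids and at -7.57, -4.38 and -2.25 in selected organoids, a difference of -9.99 ± 1.08 (SE; adjusted p = 6.70e-06). Ces2c, a carboxylesterase, fell by 8.02, and Cyp2c55, a cytochrome P450, fell by 9.93. Ugt2b34, a glucuronosyltransferase, and Abcg2, an efflux pump of the apical membrane, were among the 12 largest falls of genes above background in both groups, at -11.46 and -10.19. Only 1 selected array was well above background for each of these 2 genes, so their differences are not exact sizes. Cyp1b1 was the member called higher, by 3.10 ± 0.83. Several of these enzymes (Ces2, Cyp2c and Ugt2b), like the Saa genes, class I antigens and Zscan4 genes below, have near-identical copies that 1 probe can bind, so a value for a single copy is uncertain.

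Ion and water transport genes were mixed, with 7 of 18 lower and 3 higher, or 1 higher without EV line 3. Slc9a3, the sodium-proton exchanger that absorbs sodium, lay at 3.06, 1.72 and 3.27 in EV organoids and at -2.20, -7.74 and -7.22 in selected organoids, a difference of -8.41 ± 1.81 (SE; adjusted p = 0.00157). Atp1b1, the beta subunit of the sodium pump, fell by 3.72. Slc12a2, the basolateral chloride importer of secreting crypt cells, lay at 1.72, 2.25 and 0.59 in EV organoids and at 3.43, 5.69 and 5.43 in selected organoids, a difference of 3.33 ± 0.67 (SE; adjusted p = 0.000898). The absorptive exchanger was low and the crypt importer high in all 3 selected lines. Cftr, the apical chloride channel, rose by 1.73, with an adjusted p of 0.0933 without EV line 3 and 0.0625 without selected line 3.

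Goblet cell genes were lower in 9 of 15 cases, with a median of -4.94, or -3.71 with bounds. Muc2, the main gel-forming mucin, lay at 5.04, 2.86 and 4.05 in EV organoids and at -7.58, -6.57 and -4.81 in selected organoids, a difference of -10.30 ± 1.97 (SE; adjusted p = 0.000633). Fcgbp, a mucus protein, lay at 6.81, 7.25 and 7.03 in EV organoids and at -0.29, -0.87 and -3.06 in selected organoids, a difference of -8.43 ± 1.03 (SE; adjusted p = 1.68e-05), and Zg16, a mucus lectin, fell by 12.68. The products of mature goblet cells were far lower in each selected line. Only 1 selected array was well above background for Muc2 and for Zg16, so their differences are not exact sizes. Atoh1, the factor that specifies secretory cells, lay at -0.44, 0.16 and -1.35 in EV organoids and at -5.06, -7.91 and -3.50 in selected organoids, a difference of -4.94 ± 1.69 (SE; adjusted p = 0.0262), with an adjusted p of 0.0608 without EV line 1, 0.0702 without EV line 2 and 0.112 without selected line 2. Spdef, a later factor of this lineage, and Agr2 were not called, and their selected lines lay apart at -3.66, -1.34 and 0.64 and at -1.98, 1.78 and 4.42. Selected line 3 was near the EV values for both and line 1 far below them.

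Enteroendocrine genes were lower in 13 of 16 cases, with a median of -4.30, or -3.18 with bounds. Chga, chromogranin A, lay at 3.99, -0.81 and 4.03 in EV organoids and at -4.41, -5.92 and -5.22 in selected organoids, a difference of -7.58 ± 1.69 (SE; adjusted p = 0.00198). Sct, which encodes secretin, lay at 4.38, 0.27 and 5.09 in EV organoids and at -3.23, -3.85 and -4.11 in selected organoids, a difference of -6.98 ± 1.13 (SE; adjusted p = 0.000166). EV line 2 was the lowest EV line for both genes and still lay above every selected line. Chgb was at least 668-fold lower and Nts, neurotensin, at least 201-fold lower. Neurod1, an enteroendocrine transcription factor, was at least 3.96-fold lower, with an adjusted p of 0.0931 without EV line 1, 0.0993 without EV line 3, 0.0696 without selected line 1 and 0.0651 without selected line 2. Tuft cell genes gave 1 higher and none lower of 11, the 1 being Alox5ap (3.27 ± 0.79). The tuft count depended on EV line 2, without which 4 were lower and the median went from -0.86 to -1.86, and 1 was lower without selected line 1 or selected line 2.

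Stem cell genes separated the selected lines from each other. Of 13 listed genes 4 were higher (30.8%) and 2 lower (15.4%), against 25.0% and 23.2% of all genes. The lower count was 0 without EV line 2, EV line 3 or selected line 1 and 1 without EV line 1 or selected line 2. The list's median difference from the EV mean was 4.01 in selected line 1, 0.03 in line 2 and 0.36 in line 3. Lgr5, the R-spondin receptor that marks crypt stem cells, lay at -6.08, -7.70 and -7.59 in EV organoids and at 0.67, -7.71 and -7.44 in selected organoids, a difference of 2.30 ± 2.42 (SE; adjusted p = 0.461). Ascl2, a Wnt-driven stem cell factor, lay at -2.52, -5.92 and -4.55 in EV organoids and at 4.37, -5.51 and -4.87 in selected organoids, a difference of 2.33 ± 2.69 (SE; adjusted p = 0.503). Only selected line 1 was high for these 2 genes, and lines 2 and 3 lay within or near the EV range, so that without line 1 the differences were -0.45 and -0.86. No EV array was well above background for Lgr5, nor for Nkd1 below, so their fitted differences are not exact sizes. Sox9, a factor of the crypt base, lay at -2.19, -1.15 and -3.35 in EV organoids and at 1.47, 2.78 and 3.07 in selected organoids, a difference of 4.67 ± 0.84 (SE; adjusted p = 0.000389). Lrig1, a feedback inhibitor of ERBB receptors in stem cells, rose by 2.77, and Mex3a, a marker of slowly dividing Lgr5-positive cells, by 2.68. Prom1 fell by 1.94, mostly in selected line 1 (4.33, 6.83 and 7.25), with an adjusted p of 0.0612 without EV line 1, 0.118 without EV line 2, 0.0919 without EV line 3 and 0.228 without selected line 1.

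Wnt target genes showed the same split between lines. Of 20 genes 7 were higher and 1 lower, and the median difference from the EV mean was 2.90 in selected line 1, 0.21 in line 2 and 0.25 in line 3. The count called higher was 4 without EV line 1 and 3 without EV line 3, and 2 were lower without selected line 1. Axin2, a feedback inhibitor that reports on beta-catenin activity, lay at -3.21, -3.04 and -2.93 in EV organoids and at 0.79, -3.06 and -2.94 in selected organoids, a difference of 1.32 ± 1.03 (SE; adjusted p = 0.309). Nkd1, another feedback inhibitor, lay at -5.32, -7.63 and -5.73 in EV organoids and at 4.24, -7.68 and -7.22 in selected organoids, a difference of 2.67 ± 3.04 (SE; adjusted p = 0.496). Selected line 1 was the single high array for Axin2, Nkd1, Lef1 (-0.46, -7.70 and -7.51), Sp5 (1.78, -7.78 and -4.77) and Tnfrsf19 (0.87, -5.83 and -4.95). Cd44, an adhesion receptor, lay at -0.07, -0.63 and -1.44 in EV organoids and at 2.51, 3.58 and 3.62 in selected organoids, a difference of 3.95 ± 0.43 (SE; adjusted p = 6.70e-06). Tcf7, which encodes a partner of beta-catenin, was at least 6.23-fold higher. For Cd44, Tcf7 and Myc all 3 selected lines were above all EV lines. Cdx1, an intestinal homeobox factor that is also a Wnt target, was the 1 member called lower, at 5.38, 5.38 and 4.67 in EV organoids and at -2.57, -5.35 and -5.89 in selected organoids, a difference of -9.75 ± 1.91 (SE; adjusted p = 0.000748).

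**Figure D3:**
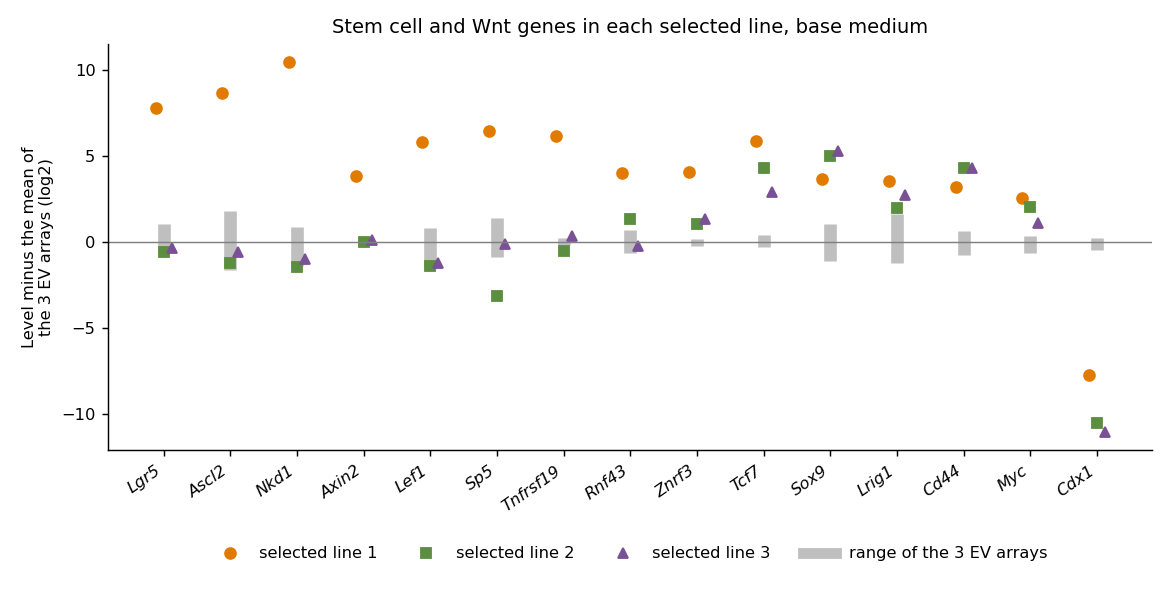
For 15 stem cell and Wnt genes, the level of each selected line minus the EV mean in base medium (log2, y axis), with grey bars for the range of the 3 EV lines. Line 1 lies far above lines 2 and 3 for Lgr5, Ascl2, Nkd1 and Axin2, while all lines lie above the EV range for Sox9, Cd44 and Myc.

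Of 18 genes for Wnt ligands and receptors 6 were higher and 3 lower, shares near those of all genes (25.0% and 23.2%). Fzd2 and Fzd6, Wnt receptors, rose by 3.72 and 2.34, and Fzd9 was at least 6.27-fold higher. Wnt7b, a ligand, lay at -5.78, -2.34 and -4.61 in EV organoids and at -1.20, 0.60 and -0.14 in selected organoids, a difference of 3.99 ± 0.91 (SE; adjusted p = 0.00237). Fzd5 fell by 2.36, the R-spondin receptor Lgr4 fell by 1.64 and the coreceptor Lrp6 fell by 1.15. Of 8 Wnt antagonists 2 were lower (and 1 higher without selected line 2), Tle4, which fell by 1.80, and Kremen2, lower by at least 2.20-fold. Rnf43 and Znrf3, ligases that remove Wnt receptors, were highest in selected line 1 (4.79, 2.16 and 0.58 and -1.68, -4.75 and -4.45), and of them Znrf3 was called, with an adjusted p of 0.0587 without EV line 1, 0.0747 without EV line 3 and 0.137 without selected line 1.

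Of 16 BMP pathway genes 3 were higher (18.8%) and 2 lower (12.5%), both below the shares of all genes (25.0% and 23.2%). Nog, which encodes Noggin, lay at 0.58, 0.84 and 1.04 in EV organoids and at 2.22, 2.17 and 2.08 in selected organoids, a difference of 1.34 ± 0.29 (SE; adjusted p = 0.00146). Id2, a target of BMP signalling, rose by 2.44 and Msx2, another target, by 1.66. All 3 selected lines exceeded all EV lines for these genes, as they did for 28.7% of all genes. Bmp2, a ligand made by differentiated epithelium, fell by 3.39, with an adjusted p of 0.0701 without EV line 3 and 0.0613 without selected line 3, and Id1 was not called at 0.34 ± 0.27.

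Of 11 Notch pathway genes 6 were higher and 1 lower. Notch1, a receptor, lay at -3.00, -2.88 and -3.21 in EV organoids and at -0.48, 0.31 and 0.32 in selected organoids, a difference of 3.08 ± 0.44 (SE; adjusted p = 6.07e-05). Notch2 rose by 2.12, the ligand Jag2 by 2.91 and the target Hes1 by 0.94, and Notch3 was at least 21.5-fold higher. The ligand Dll4 fell by 2.23, with an adjusted p of 0.0803 without EV line 3 and 0.0588 without selected line 2. Of 6 Hedgehog genes tested 3 were higher and 2 lower, with Ihh, the ligand made by mature colonocytes, at 4.16, 3.10 and 3.74 in EV organoids and at -0.23, -5.51 and -3.37 in selected organoids, a difference of -6.70 ± 1.44 (SE; adjusted p = 0.00150). Smo fell by 0.83 on its brightest probe, and the mean of its 2 probes was called in the opposite direction.

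Genes that report ERK activity rose in part, with 8 of 19 higher and 1 lower. Etv4, an ETS factor induced by ERK, lay at -0.43, -1.42 and -0.81 in EV organoids and at 2.89, 2.53 and 2.90 in selected organoids, a difference of 3.66 ± 0.32 (SE; adjusted p = 1.57e-06), and Etv5 lay at -1.12, -2.94 and -0.82 in EV organoids and at 1.38, 2.20 and 1.76 in selected organoids, a difference of 3.41 ± 0.60 (SE; adjusted p = 0.000313). Spry1, a feedback inhibitor, rose by 1.58, Spred1, another, by 0.79, and Ier3 by 2.16. Each of these was higher in every selected line than in every EV line. Dusp6, the ERK phosphatase often used as a readout, lay at 3.97, 4.24 and 3.77 in EV organoids and at 3.47, 5.08 and 4.58 in selected organoids, a difference of 0.38 ± 0.38 (SE; adjusted p = 0.431), and its groups overlapped. Dusp5 fell by 2.27, with an adjusted p of 0.0657 without EV line 3. Fos (-0.84) and Fosl1 (0.61) were not called.

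The genes upstream of ERK were mostly lower, 10 of 16 against 1 higher, with a median of -0.73. Egfr, the EGF receptor, lay at 1.98, 1.60 and 2.11 in EV organoids and at -0.33, 0.60 and 0.94 in selected organoids, a difference of -1.49 ± 0.35 (SE; adjusted p = 0.00264). Its partner Erbb2 fell by 2.22, the related receptor Erbb3 fell by 2.74, and Map2k1, which encodes MEK1, fell by 1.51. Mapk3, which encodes ERK1, fell by 1.56. The 1 member called higher was Braf, a call that was lost without single arrays as given above. Of 7 EGF family ligands Btc rose by 1.33. Areg, amphiregulin, was not called and was low in selected line 1 alone, at 0.22, 2.93 and 3.37.

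Transcription factors of intestinal identity were lower in 11 of 18 cases and higher in none, with a median of -2.09, and 1 was higher without EV line 1, EV line 2 or selected line 1. Cdx2, which specifies intestinal epithelium, lay at 5.81, 6.06 and 5.93 in EV organoids and at 4.79, 4.37 and 4.34 in selected organoids, a difference of -1.44 ± 0.25 (SE; adjusted p = 0.000251). Hnf4a, a nuclear receptor of enterocytes, lay at 6.49, 6.13 and 6.98 in EV organoids and at 1.42, 3.81 and 3.16 in selected organoids, a difference of -3.74 ± 0.62 (SE; adjusted p = 0.000205). Klf4, a factor of differentiated cells, fell by 4.42, and Vdr, the vitamin D receptor, fell by 6.68. No selected line reached any EV line for these genes. Nr1h4, the bile acid receptor FXR, was at least 352-fold lower. Foxa1 (0.44) and Gata6 (-0.66) were not called.

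Genes of a fetal-like or YAP-driven state did not move together, with 3 of 15 higher (20%) and 2 lower (13.3%). Both shares were below those of all genes (25.0% and 23.2%), and 1 was lower without EV line 2, EV line 3 or selected line 1. Anxa1 rose by 1.46 and Sprr1a fell by 3.56. Clu, clusterin, lay at 6.94, 7.96 and 6.30 in EV organoids and at 0.78, 8.11 and 8.61 in selected organoids and was not called (-1.23 ± 1.98, adjusted p = 0.637). Selected line 1 was far below every other array for Clu. Of 7 gastric genes Anxa10 was at least 8.45-fold lower, Gkn3 fell by 0.83 and the mucin gene Muc5ac was not called.

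Genes often methylated in human BRAF-mutant colon cancer, the CIMP panel, gave 3 higher and 3 lower of 16 (18.8% each). Both shares were below those of all genes (25.0% higher and 23.2% lower). Bmp3 lay at 1.92, 1.53 and 2.38 in EV organoids and at -7.17, -3.72 and -1.99 in selected organoids, a difference of -6.24 ± 1.27 (SE; adjusted p = 0.00104), and Rassf1 fell by 1.42. Mgmt, a repair enzyme, was not called, with the selected lines at -4.04, -7.62 and 1.09. Selected line 2 was the lowest array and line 3 lay above every EV line for Mgmt. Of 16 genes of DNA methylation 6 were higher and 3 lower, or 1 lower without EV line 1, selected line 2 or selected line 3. Uhrf1, which brings the maintenance enzyme to replicated DNA, lay at -1.88, -3.14 and -5.39 in EV organoids and at 2.48, 1.87 and 2.18 in selected organoids, a difference of 5.64 ± 0.63 (SE; adjusted p = 7.93e-06), and Dnmt1, the maintenance methyltransferase, rose by 1.99. Dnmt3b rose by 0.74, with an adjusted p of 0.0908 without EV line 2, 0.0654 without EV line 3, 0.0886 without selected line 1 and 0.0911 without selected line 3. Tet2, which oxidises methylcytosine, fell by 0.81, with an adjusted p of 0.0617 without EV line 1, 0.130 without EV line 3, 0.136 without selected line 2 and 0.107 without selected line 3. Of 20 Polycomb genes 12 were higher and 2 lower. Ezh2, the H3K27 methyltransferase, rose by 1.37 and its homologue Ezh1 fell by 0.89, the latter with an adjusted p of 0.0828 without EV line 3 and 0.0623 without selected line 1. Cbx6, a reader of the H3K27 mark, lay at -2.38, -1.21 and -2.47 in EV organoids and at 2.46, 2.43 and 2.42 in selected organoids, a difference of 4.46 ± 0.36 (SE; adjusted p = 8.79e-07).

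Interferon response genes were lower in 14 of 21 cases and higher in none, with a median of -3.25. Irf7, a factor that amplifies the response, lay at 3.53, 1.97 and 1.88 in EV organoids and at -3.23, -1.84 and -2.07 in selected organoids, a difference of -4.84 ± 1.11 (SE; adjusted p = 0.00246). Oasl2 lay at 4.15, 1.50 and 1.30 in EV organoids and at -5.60, -3.17 and -5.79 in selected organoids, a difference of -7.17 ± 1.84 (SE; adjusted p = 0.00512). Isg15, a ubiquitin-like protein, lay at 6.05, 3.21 and 2.50 in EV organoids and at -0.72, 0.90 and -1.57 in selected organoids, a difference of -4.38 ± 1.53 (SE; adjusted p = 0.0292). EV line 1 was the highest array for Oasl2 and Isg15, and selected line 3 the lowest. The adjusted p of Isg15 was 0.125 without EV line 1, 0.0682 without selected line 1 and 0.0925 without selected line 3. The count of members called lower was 8 without EV line 1 and 8 without selected line 1, and without the latter 1 was higher. Antigen presentation genes were lower in 10 of 17 cases and higher in 2. H2-K1, a class I molecule, lay at 7.11, 6.70 and 7.26 in EV organoids and at 3.97, 4.55 and 4.40 in selected organoids, a difference of -2.72 ± 0.30 (SE; adjusted p = 8.17e-06), and B2m, its light chain, fell by 2.84. Ciita, the class II activator, fell by 1.23, while H2-DMb1 was at least 13.8-fold higher. Of 15 antimicrobial genes 7 fell, among them Saa1, which fell by 6.94, Pigr, the receptor that carries antibodies across the epithelium, fell by 1.81, and Duoxa2, lower by at least 17.3-fold. Nos2 rose by 0.65. Ctss, cathepsin S, was among the 12 largest falls of genes above background in both groups, at 5.85, 5.04 and 5.98 in EV organoids and at -5.10, -4.02 and -4.66 in selected organoids, a difference of -10.22 ± 0.54 (SE; adjusted p = 4.06e-08).

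The other lists were mixed, beside 25.0% of all genes called higher and 23.2% called lower. Glycolysis genes gave 5 higher and 6 lower of 17, and Hk1, hexokinase 1, rose by 1.45 on its brightest probe, while Slc2a1, the glucose transporter GLUT1, fell by 1.81. The higher count was 2 without EV line 1 and 3 without selected line 1 or selected line 2, and 2 with quantile normalization and in the authors' deposited values. In a fit of the 6 arrays alone 2 were higher and 3 lower. Cholesterol synthesis genes gave 2 higher and 7 lower of 22, and the lower count was 2 without EV line 1 and 3 without selected line 1. The higher count was 0 without EV line 2, EV line 3, selected line 2 or selected line 3. For cholesterol synthesis a fit of the 6 arrays alone gave 0 higher and 2 lower. Of 14 integrin and laminin genes 4 were higher and 5 lower, with Lamb3, a chain of an epithelial laminin, at -2.71 and Lamc1 at 0.91. Their higher count was 2 without EV line 3, selected line 2 or selected line 3, and 1 in a fit of the 6 arrays alone. Of 13 keratins 2 fell, Krt20 and Krt8 (-1.49, adjusted p = 0.0676 without selected line 1). Of 9 genes of 2-cell embryos and germ cells 2 were higher and 2 lower. The higher ones, Zscan4e and Zscan4f, were highest in selected line 1, at 2.01, -4.50 and -3.70 and at 1.94, -4.73 and -3.80. Without selected line 1 their differences from EV organoids were 2.82 and 2.55 and were not called (limma adjusted p = 0.178 and 0.231). The count called higher was 0 without EV line 1 or EV line 3, 1 without EV line 2 or selected line 1 and 5 without selected line 2. The plot of list medians sets the groups side by side.

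**Figure D4:**
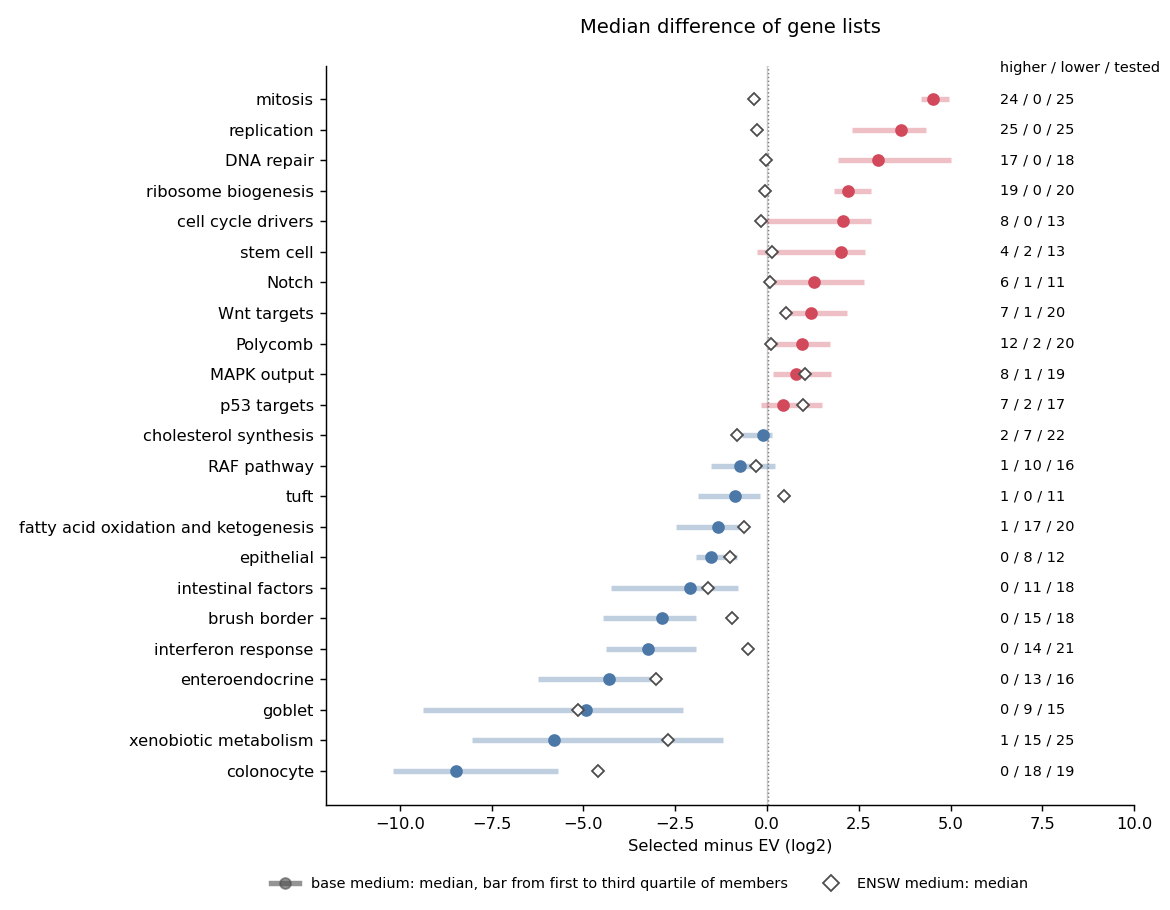
Median difference between selected and EV organoids of the members of 23 gene lists (log2, x axis), with circles for base medium, bars from the first to the third quartile of members in base medium, and diamonds for ENSW medium. The counts at the right give members called higher, called lower and tested in base medium. Replication, mitosis and DNA repair lie at 3.66, 4.52 and 3.01 in base medium and near 0 in ENSW, and colonocyte genes lie at -8.48 and -4.61.

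The printed promoters can be set beside the shares over whole lists, counted in windows of 250 bases before to 50 bases after the RefSeq start. A promoter was found for 12586 of the 21439 genes. An E2F motif (TTCCCGC or TTGGCGC, either strand) stood in 10.9% of them, in 15.4% of genes called higher, in 9.49% of genes called lower and in 11 of 21 replication promoters (52.4%). TTTGAA together with CCAAT stood in 5.47% of all, in 7.62% of genes called higher, in 3.76% of genes called lower and in 16 of 21 mitosis promoters (76.2%). The E2F motif also stood in 4 of 21 mitosis promoters (19%) and the pair in 2 of 21 replication promoters (9.52%). Both shares were above those of all promoters (10.9% and 5.47%). TTGGCGC can share bases with a CCAAT box on the other strand, and the Cdk1 window also holds an E2F match, left in lower case. The CDX motif TTTATNG stood in 8.14% of all promoters, in 7.40% of those of genes called higher, in 8.13% of those of genes called lower, in 16.8% of those of genes called lower by over 16-fold and in 6 of 17 colonocyte promoters (35.3%). The ISRE stood in 3.11% of all, in 2.10% of genes called higher, in 3.66% of genes called lower and in 10 of 16 interferon response promoters (62.5%). The CDX and ISRE motifs were added after the values had been seen, and so was an HNF4 motif. It stood in 4.07% of all promoters, in 8.83% of those of genes called lower by over 16-fold and in 2 of 17 colonocyte promoters (11.8%). Median GC was 59.3% over all promoters, 52% for genes called lower by over 16-fold and 53.7% for colonocyte promoters. The part of base composition in the motif shares was not tested. CpG sites were fewer at the genes that fell furthest, with a median observed over expected ratio of 0.289 for genes called lower by over 16-fold, 0.805 for genes called higher by as much and 0.71 over all. A match is a description of the sequence and not evidence that a factor binds there.

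**Figure D5:**
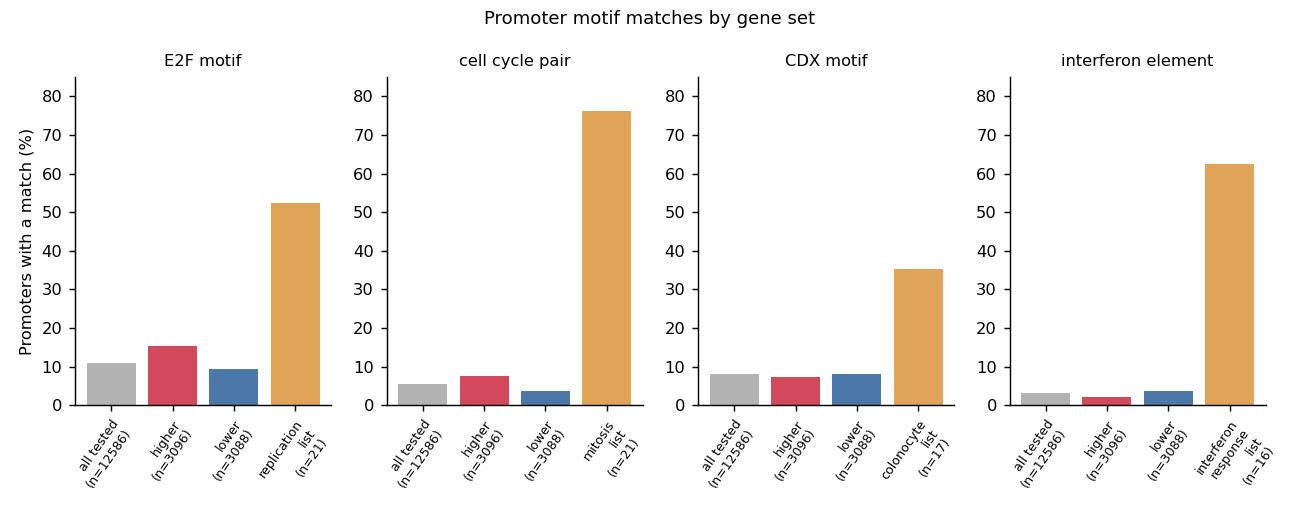
Share of promoters with a motif match (percent, y axis from 0) in 4 panels, each with bars for all tested genes, genes called higher, genes called lower and the list named in the panel. The list bar is the highest of its panel in each case, at 52.4% (E2F, replication), 76.2% (TTTGAA with CCAAT, mitosis), 35.3% (CDX, colonocyte) and 62.5% (ISRE, interferon response).

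The same comparison could be made in ENSW medium on 6 other arrays. There 2967 genes (13.8%) were called, 8.70% of genes higher and 5.14% lower. The difference between media of the selected minus EV difference was itself tested and was called for 5192 genes (24.2%), 2958 higher in base medium (13.8%) and 2234 lower (10.4%). With the array median in place of the 75th percentile as reference these were 3509 and 1247, since the median over all genes moved from -0.19 to 0.05. That fit took the base and ENSW arrays of a culture (type and line) as independent, though the estimated correlation within a culture was 0.525. With culture as a random block 4126 genes were higher in base medium and 5122 lower, so the larger count changed direction. The counts by list below come from the fit without this block. Among the selected organoids alone, 1 gene was called between base and ENSW medium by limma at an adjusted p under 0.05, and 3 genes with culture as a random block, a setting chosen after seeing the data. At an unadjusted p under 0.05 these counts were 318 and 1409.

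Most genes of the cell division lists differed between media. Of the replication genes 24 of 25, of the mitosis genes 22 of 25, of the DNA repair genes 17 of 18 and of the ribosome biogenesis genes 18 of 20 had a larger rise in base than in ENSW medium. In ENSW medium Mki67 lay at 3.32, 3.68 and 3.67 in selected lines and at 4.14, 4.51 and 3.83 in EV lines, a difference of -0.60 ± 0.65 (SE; adjusted p = 0.571), and the difference between media was 5.39 ± 0.92 (SE; adjusted p = 0.00128). In the same medium Mcm5 lay at 2.09, 2.14 and 2.19 in selected lines and at 2.54, 2.47 and 2.87 in EV lines. There the EV lines lay above the selected lines for both genes, while in base medium the EV lines were far lower. Racgap1, needed for cytokinesis, differed between media by 4.51 ± 0.41 (SE; adjusted p = 0.000112). Eya2 was higher in selected organoids in both media but more so in base (5.91 against 2.47, difference between media 3.44 ± 0.86 (SE; adjusted p = 0.00996)).

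Of the colonocyte genes 14 of 19 were called lower in ENSW medium, with a median of -4.61, and 5 had a larger fall in base medium. In ENSW medium Guca2a lay at -3.85, -3.63 and -3.40 in selected lines and at 5.73, 3.15 and 5.94 in EV lines, a difference of -8.57 ± 0.81 (SE; adjusted p = 3.16e-05), and the difference between media was -4.06 ± 1.14 (SE; adjusted p = 0.0191). The selected lines were alike in both media, and the EV lines were higher in base medium. Goblet genes were called lower in 10 of 15 cases in ENSW medium, with a median of -5.14, and 2 differed between media. Other differentiation lists gave 6 of 16 enteroendocrine, 4 of 18 brush border, 4 of 18 ion and water transport and 7 of 20 fatty acid oxidation genes called lower in ENSW medium. Interferon response genes gave none called in ENSW medium, with a median of -0.52, and 2 of 21 differed between media. Tesc was as high in ENSW as in base medium (6.36 against 6.50, adjusted p of the difference between media = 0.955).

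Against unselected BRAF organoids in base medium, 2092 genes were called in selected organoids (9.76%), 990 higher (4.62%) and 1102 lower (5.14%). This comparison shares its selected arrays with the one against EV. The count of 2092 ran from 842 without BRAF line 2 to 3373 without BRAF line 1, with 1055 without BRAF line 3 and 1251 without selected line 1 or line 3, and it was 232 in a fit of these 6 arrays alone. BRAF organoids against the same EV arrays gave 6654 called genes (31.0%). The array of BRAF line 3 stood apart, with the Y-linked gene Ddx3y at -7.84 against -1.53 and -2.01 in BRAF lines 1 and 2.

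Of the replication genes 17 of 25 were higher in selected than in BRAF organoids, and of the mitosis genes 2 of 25. Orc6, of the origin recognition complex, lay at 2.87, 2.65 and 2.86 in selected lines and at 1.35, 0.94 and 1.02 in BRAF lines, a difference of 1.69 ± 0.22 (SE; adjusted p = 0.000549). Mki67 lay at 3.44, 2.29 and 2.04 in BRAF organoids, a difference of 1.34 ± 0.65 (SE; adjusted p = 0.216). BRAF lines lay between EV and selected lines for both genes. Sun2, a nuclear envelope protein, differed by 1.66 ± 0.18 (SE; adjusted p = 8.61e-05), and Camkk2, a calcium-dependent kinase, by 1.53 ± 0.18 (SE; adjusted p = 0.000247).

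Colonocyte genes were lower than in BRAF organoids in 15 of 19 cases, with a median of -4.04. Guca2a lay at 4.50, 6.10 and 5.92 in BRAF organoids, a difference of -8.99 ± 0.81 (SE; adjusted p = 1.85e-05). Hsd17b2, which inactivates sex steroids, lay at 2.75, 3.29 and 3.01 in BRAF, at 4.74, 5.00 and 5.40 in EV and at -7.27, -7.29 and -7.05 in selected organoids. It was not well above background in any selected line and was at least 339-fold lower than in BRAF organoids (adjusted p = 4.11e-10). Clec2h, a lectin of the gut epithelium, lay at 2.52, 3.26 and 2.88 in BRAF organoids, was not well above background in any selected line and was at least 309.8-fold lower there (adjusted p = 1.87e-07). The BRAF lines were nearer to the EV lines than to the selected lines for these 3 genes. Goblet genes were lower than in BRAF organoids in 4 of 15 cases and enteroendocrine genes in 1 of 16, with Muc2 at -2.86, -6.24 and 0.06 and Chga at -1.66, -3.80 and 0.60 in BRAF organoids. Among intestinal factors 7 of 18 were lower than in BRAF organoids, and Cdx2 lay at 5.98, 5.34 and 5.71 in BRAF organoids, a difference of -1.18 ± 0.25 (SE; adjusted p = 0.00945). Stem cell genes gave none higher and 1 lower of 13.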

How the data were processed

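Expression was measured in 20 cultures by 1-colour arrays. The scanner files hold the fluorescence intensity that the authors deposited, made with Feature Extraction 10.7.3.1 per the file headers, background-subtracted per the file headers. A table of log2 values that the authors deposited, made with limma per the submitters' processing notes, served as an alternative. Here log2 of the processed intensity minus each array's 75th percentile was taken, spots that were controls or outliers were dropped, no spot was saturated, and probes had to be well above background on at least 3 of 18 arrays. The brightest probe stood for a gene, and 26581 of 39429 probes were named through RefSeq accessions. limma 3.58.1 (R 4.3.3) was fitted to the 6 groups of EV, BRAF and selected organoids in both media, 18 arrays, with Benjamini-Hochberg adjustment. The 2 wild-type arrays entered no test.

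The comparison, gene lists and motifs were chosen with earlier results of these data known. Named were the 12 largest rises and falls of genes above background in both groups, the 6 largest bounds per direction, the called members with the smallest adjusted p in each list (at most 6), the 6 smallest p per direction for the difference between media and for selected against BRAF, and a few fixed genes such as Braf, Cdx2, Cdkn2a and Lgr5. The 12 largest rises and falls were taken only from called genes whose groups did not overlap. Above background in both groups here means well above it on at least 1 array of each group. Other listed genes that are named were chosen after their values were seen. Some genes that the rule names are not reported here. The script was tested on simulated data. Alternatives covered background correction, scaling, filter, probe choice, blocks, moderation and leaving out each array.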

Additional observations from a re-analysis of the deposited data

Results flagged for a closer look

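The difference between selected and EV organoids was not the same in both media for 5192 genes, tested as the difference in base medium minus that in ENSW medium, and for 131 of the 270 genes named by rule. The 6 smallest p-values among genes with a larger rise in base medium belonged to Ska2 (3.47), Plk4 (4.45), Cdca7l (3.38), Racgap1 (4.51), Kif4 (4.37) and Depdc1b (4.56). No EV array in base medium was well above background for Ska2, Plk4 and Cdca7l, so their values are fitted differences and not exact sizes. Ska2 lay at -7.23, -7.32 and -7.37 in EV organoids in base medium and at -4.08, -3.75 and -3.99 in EV organoids in ENSW medium. The selected lines of Ska2 lay at -3.23, -3.50 and -3.61 in base and at -3.56, -3.43 and -3.66 in ENSW medium, so the EV lines in base medium were the arrays that stood apart. Kif4, a chromosome motor protein, lay at -3.96, -5.04 and -4.59 in EV organoids in base medium and at -0.60, -0.61 and -0.79 in ENSW medium.

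The 6 smallest p-values in the other direction belonged to 4931428L18Rik (-5.06), Sntg1 (-2.96), Cxcr5 (-3.22), Lmbrd1 (-2.21), Spryd7 (-2.12) and Kynu (-4.53). For 4931428L18Rik, Sntg1, Cxcr5 and Kynu no array of the other 3 combinations was well above background, so these too are fitted differences and not exact sizes. Spryd7 lay at 3.16, 2.59 and 3.16 in EV organoids in base medium and at 0.99, 0.75 and 1.06 in ENSW medium, against 0.62, 0.34 and 0.57 and 0.75, 0.47 and 0.56 in selected organoids. Kynu, kynureninase of tryptophan breakdown, lay at -2.46, -4.80 and -3.71 in EV organoids in base medium. For Lmbrd1, a lysosomal cobalamin transport protein, the EV lines in base medium (0.04, 0.25 and 0.60) again stood apart from all others.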

How the results depend on the processing

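The count of genes called between selected and EV organoids in base medium lay between 8244 (the 6 arrays alone) and 10984 under the other settings, and between 8613 (without EV line 3) and 10001 (without EV line 2) as arrays were left out. The difference between media gave 9248 genes with a random block for culture, and between 3648 (EV line 3 removed) and 5701 (EV line 2 removed) as arrays were left out. Between media within selected organoids 3 genes in place of 1 were called with culture as a random block. Against BRAF organoids the count was 232 in a fit of these arrays alone and 842 to 3373 as arrays were left out. The lines were not paired by number. Deviations of same-numbered EV and selected lines correlated at -0.04 to 0.06, and those of differently numbered lines at -0.12 to 0.09. These correlations cannot decide whether a number marks the same starting line, which the labels do not say. With the line as a replicate block 10984 genes were called in place of 10330. That block changed the call of none of the 270 genes named by rule. Of 4098 results for 342 genes under settings other than leaving out an array, 3992 kept direction and call, 78 lost the call, 14 gained one and 14 reversed.

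Reversed with the mean of all probes were Car4 (-3.38), Cdkn2a (-0.13), E2f7 (2.45), Ppara (-3.21) and Smo (1.11). E2f7 was also 2.26 with normexp, 3.17 in the authors' values, 0.0083 with the array median and 0.00019 with slide as a random block. Chek1 was 0.044 with quantile normalization, 0.039 with the array median and 0.024 in the authors' values, and Ubtf -0.28 with quantile normalization and -0.15 in the authors' values. As arrays were left out the sign changed for Areg (-0.80 to 0.78), Ascl2 (-0.86 to 4.08), Car4 (-0.13 to 0.33), Cdkn2a (-0.23 to 0.50), Chek1 (-0.078 to 0.10), Clu (-2.62 to 1.29), Ddx3y (-0.42 to 0.087), E2f7 (-0.15 to 0.032), Lef1 (-1.32 to 2.30), Lgr5 (-0.45 to 3.74), Nkd1 (-1.22 to 4.74), Sp5 (-1.60 to 3.18) and Tnfrsf19 (-0.065 to 3.29). In a fit of the 6 arrays alone Braf, Cdkn2d, Cftr, Clca4a, Dnmt3b, Dusp5, Hes1, Krt8, Neurod1, Ppara, Prom1, Tet2, Znrf3, Zscan4e and Zscan4f lost the call, and with normexp Cftr, Ciita, Dnmt3b, Kremen2, Znrf3, Zscan4e and Zscan4f did. Slide as a random block ended the calls of Clca4a, Prom1, Znrf3, Zscan4e and Zscan4f. List medians moved by over 1.5 times with normexp for DNA repair (1.72), enteroendocrine (-1.62), goblet (-2.24) and interferon response genes (-2.11), and in the authors' values for enteroendocrine (-2.22) and goblet genes (-2.71). The count of Wnt targets called higher was 4 with normexp or with slide as a random block and 3 in a fit of the 6 arrays alone. The cause was not tested. Signal near background limits what dim genes can show.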

Other observations

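Some gene families were counted only after the values had been seen, and no test was made over them. Of 79 ribosomal protein genes of the cytosol 77 were called higher in the selected lines in base medium, against 25.0% of all genes, with a median of 1.44. Their median level was 5.72, 5.96 and 5.08 in EV lines 1, 2 and 3 and 7.29, 7.30 and 7.07 in selected lines, and in ENSW medium none was called by limma at an adjusted p under 0.05 and the median was 0.18. Probes for these genes can also bind processed pseudogenes. Of 77 mitochondrial ribosomal protein genes 49 were higher and 1 lower, a count that ran from 28 to 53 over the settings, and of 54 translation initiation factors 29 were higher and 6 lower. Respiratory complex I gave 6 higher and 9 lower of 48, against 25.0% and 23.2% of all genes, with a median of -0.05. Of 20 genes of the vacuolar proton pump 9 were lower and none higher, with a median of -0.49.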
